A study of Rattus norvegicus with 16 samples.

Results

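The pooled phenformin effect is the difference in liver RNA between rats that ate phenformin and rats that did not, taken over both sampling times of the study. All 16 arrays of the series entered it, 8 from phenformin livers and 8 from control livers. Treatment was fitted to the log2 intensity of each gene together with day as an additive term. Since the groups are of equal size, the fitted effect is the mean of the effects at day 3 and at day 14. There were 4 groups of 4 arrays each: phenformin and control livers of day 3, and phenformin and control livers of day 14. The phenformin rats had 3000 ppm of the drug mixed into their food for 3 or 14 days, and the control rats had the same food without it. All were male RccHan Wistar rats of 7 to 8 weeks. By their titles the arrays within a group are biological replicates, while the labels state 5 animals per group and 2 or 3 animals per cage. Neither cage mates nor the hour of necropsy is named in the sources used here.

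Phenformin is a biguanide, a relative of metformin that was used against diabetes. Biguanides are known to slow complex I of the mitochondrial respiratory chain, to raise AMP in the cell and with it the activity of the kinase AMPK, and to lower glucose output of the liver. The liver also makes fatty acids from carbohydrate, breaks down amino acids, makes bile acids from cholesterol and carries a circadian clock, in which the receptors Nr1d1 and Nr1d2 (REV-ERB alpha and beta) repress transcription and the Per and Cry proteins inhibit the activators Clock and Bmal1.

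The 4 groups were alike in scale, with a median intensity per array between 30.89 and 34.46. The values are linear intensities that go up to a log2 value of 19.93, and a fold here is a ratio of deposited intensities, which may not equal a ratio of RNA amounts. The median gene had a mean log2 value of 5.86, and no detection call was used, so folds of genes near or below that level may come out too small. For 20 genes within 0.5 log2 units of the highest value, changes cannot be read. In pieces of whole liver, fewer cells of a type and less RNA per cell cannot be told apart. The 9 measured hepatocyte markers were abundant in all groups. Their mean log2 value per array was 16.49 to 16.56 in phenformin livers and 16.59 to 16.67 in control livers at day 3, and 16.46 to 16.53 in phenformin livers and 16.51 to 16.64 in control livers at day 14. The groups were separate at day 3, and 8 of 9 estimates were negative with a median of -0.07. Of these markers 0 of 9 was called in the pooled fit (range over the alternative settings 0 to 1 called). The arrays with the lowest estimated weight were replicate 4 of the control livers at day 14 (0.644), replicate 4 of the phenformin livers at day 3 (0.651) and replicate 1 of the phenformin livers at day 14 (0.659).

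Phenformin livers differed from control livers, over both days together, in 684 of 22093 genes, or 3.1% of those tested. Of these, 342 were higher and 342 were lower with the drug, 1.55% each. The counts of called genes in the lists below are to be read beside these shares. A gene was called at an adjusted p under 0.05 from limma's moderated test, with Benjamini-Hochberg adjustment over all 22093 genes, and every adjusted p of a gene below is of this kind. Folds of genes that fell are control over phenformin, and the brackets after a fold hold its 95% interval. At an unadjusted p under 0.05 there were 3593 genes. The size of a called change had a median of 0.42 on the log2 scale, with a median standard error of 0.09. When each array was centred on its median, 404 genes were higher and 265 lower, so that 60.4% of calls were rises in place of 50%. The median change over all genes was 0.00 as deposited and 0.02 after centring.

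The same arrays taken by day gave fewer calls. In a fit of 4 group means, 254 genes (1.15%) were called at day 3, 55 higher (0.249%) and 199 lower (0.901%). Day 14 had 71 calls (0.321%), 32 higher (0.145%) and 39 lower (0.177%). The pooled fit called 140 of the 254 and 66 of the 71. It kept 50 of the 55 day-3 rises and 90 of the 199 day-3 falls. Of the 114 day-3 calls that were lost on pooling, 113 had an unadjusted p under 0.05 for the difference between the days, beside 4.68% of all genes, and nothing is read from that, since the selection favours such genes.

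Neither day alone resolved 504 of the 684 pooled calls, that is, 272 rises and 232 falls. These are 2.28%, 1.23% and 1.05% of all genes tested. The remaining 180 calls comprised 26 called at both days, 114 at day 3 only and 40 at day 14 only. The class definition leaves smaller changes in the 504 genes, so their sizes are given as a description. Their median fold was 1.29 (range 1.14 to 5.97), and that of the other 180 was 1.51 (range 1.20 to 16.4). A change of at least 1.5-fold was reached by 102 of the 504, 51 up and 51 down, and by 91 of the 180. The class also depends on the threshold, since 136 of the 504 had an adjusted p between 0.05 and 0.10 at a day and 368 had none under 0.10. An unadjusted p under 0.05 at each day was found for 412 of the 504. The tests of both days took their spread from all 16 arrays. With each day fitted on its own 8 arrays, 309 rises and 280 falls were resolved at neither day.

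All 684 called genes changed in the same direction at day 3 and at day 14. This follows in part from the fit, in which a difference between the days enters the error term, and for the 504 also from their selection, so nothing is read from it. The test of the difference itself, in which the day-3 effect is subtracted from the day-14 effect, called 1 gene of 22093 (0.00453%), against 1034 at an unadjusted p under 0.05. That gene was Anlnl1, named for its likeness to anillin, a protein of cell division. Its difference was 1.58 (adjusted p = 0.0284), and it was not called in the pooled fit. When the average effect was taken from the 4 group means, which leaves the day difference out of the error term, 699 genes were called, 683 of them with the same sign at both days, and 89 of them (12.7%) had an unadjusted p under 0.05 for the difference between days.

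**Figure D1:**
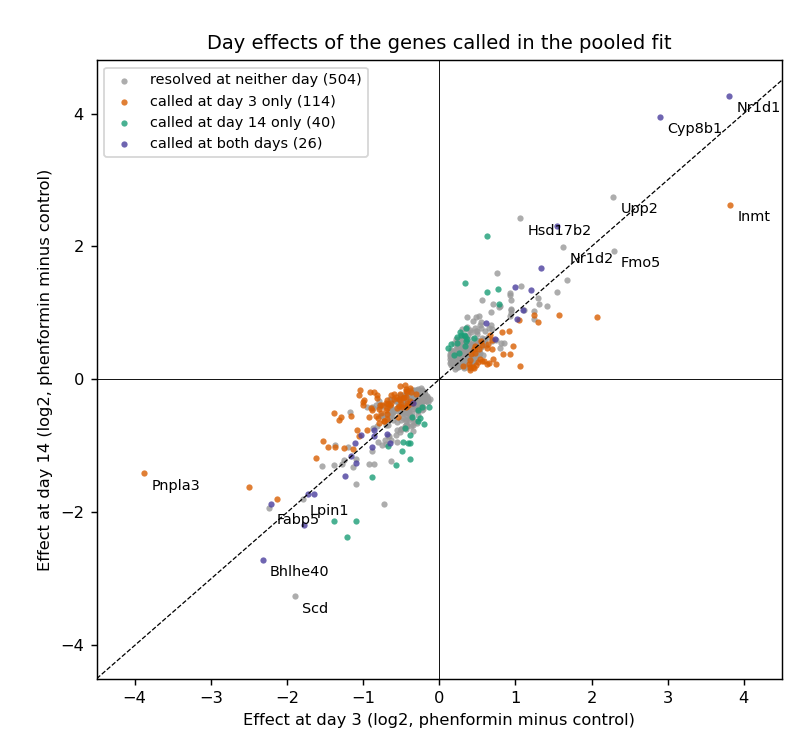
Effect of phenformin at day 3 (horizontal axis) against that at day 14 (vertical axis), both as log2 of phenformin minus control, for the 684 genes called in the pooled fit; colours give the day at which a gene was also called and the dashed line marks equal effects. The 504 grey genes, resolved at neither day, lie mostly near the centre, with Upp2, Fmo5, Nr1d2, Scd and Fabp5 far out.

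The arrays behind the calls can also be read directly, as a description, since the calls were made on the same values. In 247 of the 684 genes the arrays of phenformin and control livers did not overlap at day 3 nor at day 14 and lay in the same order, 124 up and 123 down. Over all genes 268, or 1.21%, did so. Among the 504 genes resolved at neither day it was 137. A called gene was rarely dim: 8.48% of calls lay below the median gene.

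Circadian clock genes held the largest rise of all calls, that of Nr1d1, itself a repressor. Of 7 measured activators and receptors, 2 rose, the repressing receptors Nr1d1 and Nr1d2, and 1 fell. In the separate list of Per, Cry and related repressors, 0 of 8 rose and 4 fell. Of 8 output genes 0 rose and 4 fell, and all these counts stand beside 1.55% of all genes in each direction. Nr1d2, Rora, Hlf and Tsc22d3 were among the genes called at neither day. Clock, Bmal1, Npas2 and Nfil3 were not called in the pooled fit.

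Nr1d2 encodes REV-ERB beta, a heme-binding receptor that represses clock genes. At day 3 its log2 values were 10.79, 8.82, 10.44 and 9.60 in phenformin livers, against 8.40, 8.02, 8.67 and 8.06 in control livers. At day 14 it had 9.45, 10.66, 11.83 and 10.24 in phenformin livers, against 8.20, 8.82, 9.02 and 8.15 in control livers. The groups did not overlap at either day, but the phenformin arrays were spread over about 2 log2 units. The day effects were 1.62 (adjusted p = 0.13) and 1.99 (adjusted p = 0.0734), and the pooled rise was 3.50-fold (2.21 to 5.56, adjusted p = 0.00571). Its relative Nr1d1 rose 16.4-fold (8.96 to 30.1) and was called at both days. Its 8 control arrays lay between 5.25 and 5.87, around the level of the median gene.

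Promoter sequences of 3 of the called regulators are shown because each holds 1 match to a motif that clock or lipid regulators are known to bind. They run from 250 bases before to 50 after the start of the gene, 5′ to 3′ on the gene's strand, and come from RefSeq on the build GRCr8. The capitals mark AGGTCA, the core of the sites of REV-ERB and ROR receptors, in Nr1d2 (chr15:9954784-9955083, plus strand), and CACGTG, the E-box of Clock and Bmal1 and of other basic helix-loop-helix factors, in Bhlhe40 (chr4:143174200-143174499, plus strand) and Insig1 (chr4:8057720-8058019, minus strand).
Nr1d2: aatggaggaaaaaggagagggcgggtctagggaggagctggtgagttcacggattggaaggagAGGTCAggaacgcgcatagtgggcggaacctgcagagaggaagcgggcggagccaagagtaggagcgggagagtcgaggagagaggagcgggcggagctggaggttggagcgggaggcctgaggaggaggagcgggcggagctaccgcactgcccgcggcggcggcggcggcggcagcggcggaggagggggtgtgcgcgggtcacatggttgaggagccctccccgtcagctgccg
Bhlhe40: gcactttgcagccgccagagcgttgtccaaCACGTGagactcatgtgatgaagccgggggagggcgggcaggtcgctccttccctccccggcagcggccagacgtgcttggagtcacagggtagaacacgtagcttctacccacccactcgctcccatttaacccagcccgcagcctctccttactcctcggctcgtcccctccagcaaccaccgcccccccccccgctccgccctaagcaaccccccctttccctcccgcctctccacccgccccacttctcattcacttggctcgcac
Insig1: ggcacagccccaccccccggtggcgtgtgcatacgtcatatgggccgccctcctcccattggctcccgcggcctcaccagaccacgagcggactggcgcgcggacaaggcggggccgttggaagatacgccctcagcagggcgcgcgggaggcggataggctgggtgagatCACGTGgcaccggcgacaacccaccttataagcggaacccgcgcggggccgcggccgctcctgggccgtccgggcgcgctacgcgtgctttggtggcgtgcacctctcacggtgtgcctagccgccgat
Both strands were searched. CACGTG reads the same on both, and the 2 motifs do not overlap each other. The first base of the match lies at -187 in Nr1d2, -220 in Bhlhe40 and -79 in Insig1, counted from the start of the gene.

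Such matches were common. CACGTG stood in 7.70% of the 17125 promoters of measured genes, in 10.8% of 278 promoters of genes that rose and in 11.7% of 257 promoters of genes that fell. AGGTCA stood in 13.9%, 15.5% and 11.3% of them. Of 19 measured clock genes with a promoter in the table, 1 of the 8 called genes and 3 of the 11 others held CACGTG. These are counts of letters in a window and were not tested.

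Rora, the activator that competes with REV-ERB for its sites, fell. Its log2 values were 11.68 to 12.46 in phenformin livers and 12.13 to 13.23 in control livers, and the pooled fall was 1.62-fold (1.29 to 2.03, adjusted p = 0.023). Its effect was -0.70 at day 3 and -0.69 at day 14, with adjusted p = 0.207 and 0.225.

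Hlf, one of the PAR bZIP factors that carry the clock to drug and lipid metabolism, had log2 values of 8.47, 7.55, 7.64 and 7.48 in phenformin livers at day 3, against 8.82, 8.87, 9 and 8.13 in control livers at day 3. The day-14 values were 7.54, 7.40, 7.04 and 6.94 in phenformin livers, against 8.90, 8.68, 8.57 and 7.87 in control livers. The groups were separate at day 14, and at day 3 a single phenformin array, replicate 1, lay within the control range. The pooled fall was 2.14-fold (1.64 to 2.80, adjusted p = 0.00439). Dbp and Tef, PAR bZIP factors as well, were not called.

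The repressors that fell were already resolved by day, and pooling narrowed their intervals. Per2 fell 3.31-fold (2.64 to 4.15), Cry1 3.22-fold (2.45 to 4.22) and Bhlhe40 5.73-fold (3.41 to 9.63), all called at both days. Per1, chosen after its values were seen, fell 2.63-fold (1.80 to 3.85, adjusted p = 0.00837). In the output branch Usp2, a deubiquitinase, fell 3.91-fold (2.70 to 5.67), and Wee1, a mitotic kinase, fell 1.59-fold (1.36 to 1.85). Tsc22d3, a glucocorticoid-induced leucine zipper gene, fell 1.79-fold (1.31 to 2.43, adjusted p = 0.0393), and its call was lost in 13 of the 16 fits that left out 1 array.

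In Per1, Usp2, Tsc22d3, Hlf and Cry1, though not in every clock gene, the control array numbered 4 was lowest at each day. Replicate 4 of the control livers had 6.11 for Per1 at day 3, against 7.71 to 8.07 in the other control arrays, and 6.18 at day 14, against 7.17 to 7.52. Usp2 had 7.18 in replicate 4 at day 3 and 6.67 in replicate 4 at day 14, where the other control arrays lay between 8.07 and 8.93. Tsc22d3 had 7.29 and 7.18 in the same arrays, against 7.93 to 8.76 in the others. In Bhlhe40, Per2 and Wee1 another control array was lowest at day 3. Whether the hour of sampling differed was not tested, since no hour was at hand. Without replicate 4 of the control livers at day 14, 383 genes rose and 402 fell in the pooled fit.

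In the list of fatty acid synthesis and related lipid genes, those that were called fell. Of 18 measured genes 0 rose and 6 fell, 3 of them resolved at neither day, beside 1.55% of all genes. The 6 were Scd, Acly, Elovl5, the regulators Thrsp and Mlxipl, and the lipase Pnpla3. The other 12 were not called, and 16 of the 18 estimates were negative. The median change of the list was -0.67, against 0.00 over all genes. In fits without 1 array, 4 to 9 genes of the list fell.

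Scd, the desaturase that makes oleate from stearate, had the largest fall among genes resolved at neither day. At day 3 its log2 values were 15.40, 16.94, 13.47 and 16.09 in phenformin livers, against 17.30, 17.39, 17.75 and 17.03 in control livers. By day 14 the values were 13.51, 15.59, 11.20 and 13.59 in phenformin livers, against 16.99, 17.11, 16.43 and 16.40 in control livers. Every phenformin array lay below every control array of its day, and the phenformin arrays spread far more than the control arrays. Over both days it fell 5.97-fold (2.70 to 13.2, adjusted p = 0.0165), with adjusted p = 0.347 at day 3 and 0.0777 at day 14. The fit takes 1 spread for all groups, so for a gene like Scd it averages a wide and a narrow group.

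Acly, ATP citrate lyase, which supplies acetyl-CoA for fatty acids, had log2 values of 14.05, 14.37, 12.89 and 14.18 in phenformin livers at day 3, against 15.55, 15.70, 15.71 and 14.67 in control livers at day 3. In phenformin livers at day 14 there were 12.21, 12.85, 13.07 and 12.61, against 13.82, 13.82, 12.66 and 15.65 in control livers. The groups overlapped at day 14 through 1 control array at 12.66. Its pooled fall was 2.68-fold (1.64 to 4.38, adjusted p = 0.0301), which was lost in 7 of 16 fits without 1 array.

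Thrsp, the carbohydrate-responsive lipogenic protein Spot 14, fell 2.46-fold (1.57 to 3.84, adjusted p = 0.0292, lost in 6 of 16 such fits). Its values overlapped at day 3 and were separate at day 14, when phenformin livers lay between 13.26 and 14.04 and control livers between 14.97 and 15.92. Mlxipl, the glucose-sensing factor ChREBP, fell 1.78-fold (1.45 to 2.19). Elovl5, an elongase of unsaturated fatty acids, fell 1.41-fold (1.22 to 1.63), and Pnpla3, a lipase of lipid droplets, fell 6.25-fold (2.64 to 14.8), with control values that spread between 8.84 and 13.27 at day 3.

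Genes of fat assembly and transport moved in both directions. Of 19 measured genes of glycerolipid and droplet metabolism, 3 fell and 1 rose, beside 1.55% of all genes in each direction. The median change was -0.01. Lpin1, the phosphatidate phosphatase and coregulator, had 11.19, 10.49, 10.18 and 9.85 in phenformin livers at day 3, against 11.49, 12.84, 14.20 and 10.36 in control livers at day 3. Day 14 gave 10.16, 9.94, 10.56 and 9.99 in phenformin livers, against 12.03, 12.89, 12.40 and 10.54 in control livers. The groups overlapped at both days through replicate 4 of the controls. Its fall of 3.48-fold (1.81 to 6.66, adjusted p = 0.0377) was lost in 11 of 16 fits without 1 array.

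Gpam, the acyltransferase of the first step of triglyceride synthesis, fell 1.70-fold (1.31 to 2.20), and Mttp, which loads lipid onto lipoproteins, fell 1.59-fold (1.38 to 1.83). Cd36, a fatty acid translocase, rose 2.27-fold (1.52 to 3.39, adjusted p = 0.0284). It had 9.69, 9.76, 9.73 and 10.80 in phenformin livers at day 3, against 9.60, 8.63, 9.67 and 9.04 in control livers at day 3, and the groups differed there by less than 0.1 at their nearest arrays. At day 14 phenformin livers lay between 10.18 and 11.89 and control livers between 8.55 and 9.78.

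Fabp5, a fatty acid binding protein, had 9.57, 12.20, 9.90 and 11.60 in phenformin livers at day 3, against 13.21, 12.74, 13.78 and 12.48 in control livers at day 3. At day 14 it had 8.57, 10.20, 8.63 and 9.24 in phenformin livers, against 11.72, 10.34, 11.76 and 10.54 in control livers. Phenformin and control arrays were separate at both days. Pooled, the fall was 4.24-fold (2.41 to 7.45, adjusted p = 0.00817), against adjusted p = 0.0786 and 0.162 at the single days.

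Of 18 measured genes of cholesterol metabolism, 1 fell and 0 rose, beside 1.55% of all genes in each direction. The gene that fell was Insig1, the membrane protein that holds back the activation of SREBP. At day 3 Insig1 had 12.49, 13.09, 12.84 and 12.82 in phenformin livers, against 14.62, 14.17, 14.30 and 13.17 in control livers. The day-14 values were 12.52, 13.24, 12.14 and 11.68 in phenformin livers, against 13.89, 14.41, 13.40 and 12.72 in control livers. The groups were separate at day 3 and overlapped at day 14. The fall over both days was 2.34-fold (1.60 to 3.42, adjusted p = 0.0166).

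**Figure D2:**
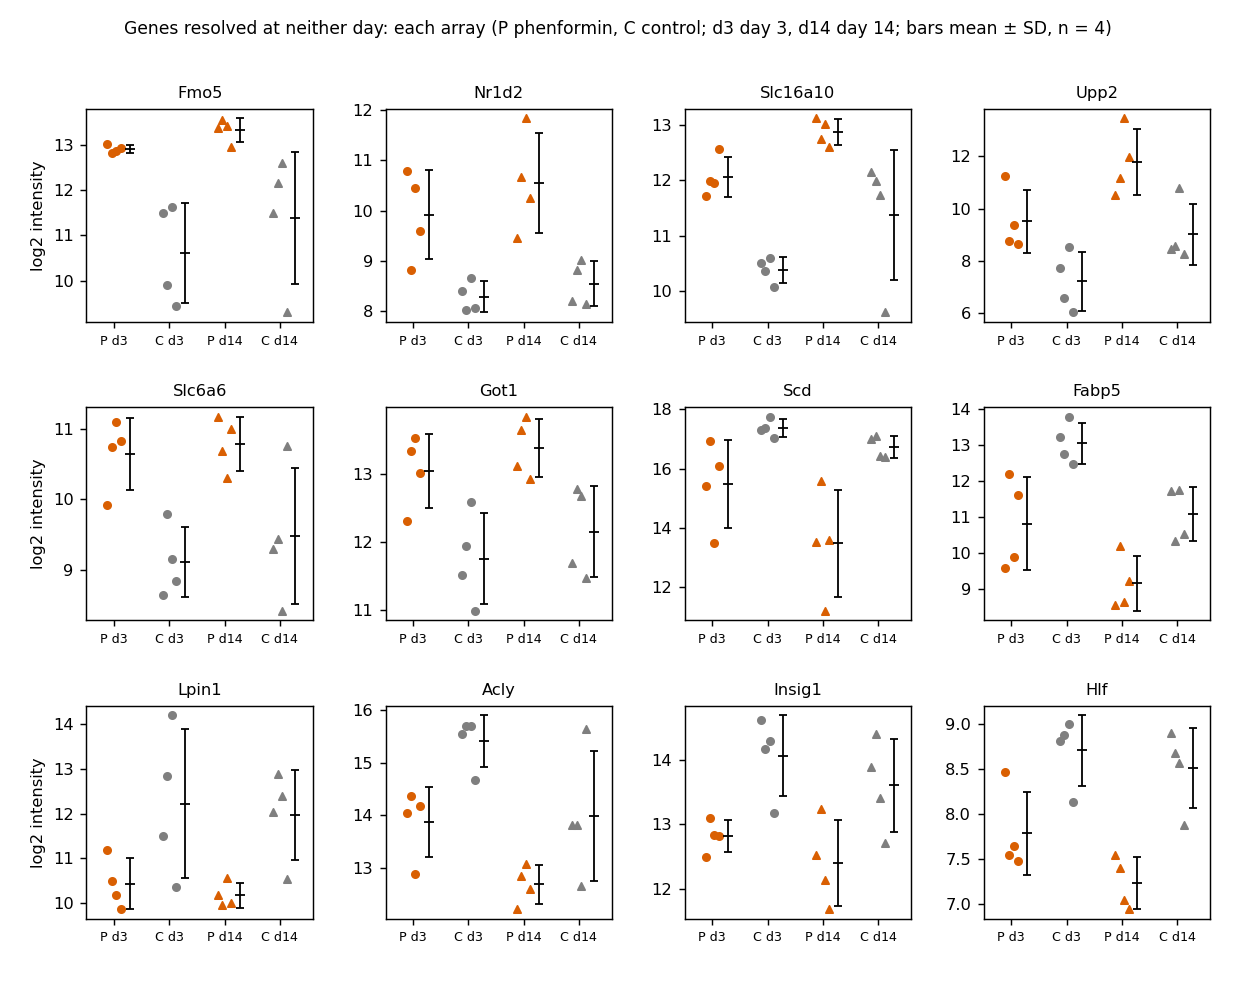
Log2 intensity of 12 genes resolved at neither day in each array, with phenformin (orange) to the left of control (grey) at day 3 (circles) and at day 14 (triangles); bars are the mean ± SD of 4 arrays. Fmo5, Nr1d2, Slc16a10, Scd and Fabp5 are separate at both days, and Lpin1 overlaps at both.

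Fatty acid oxidation, a common target of PPAR alpha, showed no called gene among 20 measured in limma's pooled fit, although 10 had an unadjusted p under 0.05. Changes ran from -0.62 to 1.79 with a median of 0.16, and 0 to 3 genes of the list were called in the other fits. Outside the list, Decr1 and Ech1, enzymes for unsaturated fatty acids in mitochondria and peroxisomes, were chosen after their values were seen. Decr1 rose 2.10-fold (1.58 to 2.79, adjusted p = 0.0076), with 12.65 to 13.26 in phenformin livers and 11.30 to 13.02 in control livers at day 3. By day 14 the groups were separate, with 13.46 to 13.96 in phenformin livers and 12.25 to 12.96 in control livers. Ech1 rose 1.93-fold (1.37 to 2.72, adjusted p = 0.0365), a call lost in 10 of 16 fits without 1 array.

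Sugar handling genes fell where they changed, apart from glycerol entry. Of 20 measured genes of glycolysis and the carbohydrate response, 4 fell, 3 of them at neither day, and 0 rose. Of all genes 1.55% were called in each direction. Gckr, the regulator that holds glucokinase in the nucleus, had 14.44, 14.62, 14.65 and 14.19 in phenformin livers at day 3, against 14.71, 14.87, 15 and 15.02 in control livers at day 3. By day 14 the values were 14.07, 14.09, 14.12 and 14.42 in phenformin livers, against 14.70, 15.23, 14.55 and 14.96 in control livers. Phenformin lay below control throughout each day, and the pooled fall was 1.47-fold (1.26 to 1.71, adjusted p = 0.0091).

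Khk, the fructose kinase, fell 1.38-fold (1.20 to 1.59, adjusted p = 0.0167). Tkfc, which takes up the triose of that pathway and was chosen after its values were seen, fell 1.83-fold (1.39 to 2.40, adjusted p = 0.0176). Pklr, liver pyruvate kinase, fell 3.05-fold (2.07 to 4.48) and was called at day 14. Pgk1, phosphoglycerate kinase, fell 1.31-fold (1.16 to 1.47, adjusted p = 0.0177), but the near-identical copy Pgk1-ps9 was called too, and the array may not tell them apart.

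Of 6 measured pentose phosphate genes 1 fell, the transketolase Tkt, by 1.39-fold (1.19 to 1.64, adjusted p = 0.0256). Among 10 glycogen genes 2 fell and 0 rose. They were the branching enzyme Gbe1, 1.81-fold (1.53 to 2.13), and the phosphatase subunit Ppp1r3b, 3.95-fold (3.04 to 5.14). The counts of both lists stand beside 1.55% of all genes in each direction.

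Of 13 measured genes of gluconeogenesis and glycerol entry, 2 rose and 1 fell, beside 1.55% of all genes in each direction. Genes of glycerol uptake were higher, with the channel Aqp9 1.66-fold (1.44 to 1.91) and the kinase Gk 1.63-fold higher (1.34 to 1.98, adjusted p = 0.00905). Gk was resolved at neither day, and its phenformin livers lay between 16.78 and 17.77, against 16.08 to 17.05 in control livers. Gpd1, the dehydrogenase of the next step, fell 1.45-fold (1.22 to 1.73, adjusted p = 0.0247). The key enzymes of glucose output were not called: Pck1 had a fold of 1.06 (0.644 to 1.75) and G6pc1 one of 1.03 in the downward direction (0.594 to 1.79). Their intervals exclude neither a modest rise nor a modest fall.

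The bile acid genes that were called rose. Of 13 measured synthesis genes 2 rose and 0 fell, and of 12 transport genes 3 rose and 0 fell, beside 1.55% of all genes in each direction. The median change was 0.23 in the synthesis list and -0.05 in the transport list, where 7 of 12 estimates were negative. Cyp8b1, the sterol hydroxylase that sets the share of cholic acid, rose 10.7-fold (5.87 to 19.6) and was called at both days. Amacr, the racemase of the side chain, was resolved at neither day and rose 1.59-fold (1.30 to 1.93, adjusted p = 0.0136). Cyp7a1, the rate-limiting enzyme of the pathway, was not called, with a fall of 4.09-fold (1.76 to 9.47) and adjusted p = 0.0683. Its phenformin livers lay between 11.16 and 14.66 and its control livers between 13.01 and 16.28. It was called with the dimmest genes left out (adjusted p = 0.0455), with array weights (0.035) and with a replicate block (0.0369).

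Abcb4, the pump that moves phosphatidylcholine into bile, had 13.11, 12.39, 13.42 and 12.67 in phenformin livers at day 3, against 12.11, 11.28, 12.00 and 11.91 in control livers at day 3. In phenformin livers at day 14 there were 13.77, 13.31, 14.36 and 13.65, against 11.99, 12.57, 13.11 and 11.80 in control livers. All phenformin arrays lay above all control arrays of their day. The pooled rise was 2.36-fold (1.73 to 3.21, adjusted p = 0.00513), against adjusted p = 0.133 and 0.0629 at the single days. The uptake carrier Slco1b2 rose 1.41-fold (1.27 to 1.57). The basolateral pump Abcc3 rose 1.57-fold (1.23 to 2.01, adjusted p = 0.0445), a call lost in 12 of 16 fits without 1 array.

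By count, amino acid breakdown had the most rises of the 34 pathway lists, which differ in length. Shorter lists had as large a share, such as bile acid transport with 3 of 12. Of the 28 measured genes of amino acid breakdown 7 rose, 5 of them resolved at neither day, and 0 fell, beside 1.55% of all genes. The estimate was above 0 in 26 of 28, against 51% of all genes, and the median change was 0.26. Between 5 and 10 genes of the list rose in fits without 1 array.

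Got1, the cytosolic aspartate aminotransferase, had 12.30, 13.34, 13.53 and 13.01 in phenformin livers at day 3, against 11.51, 11.93, 12.58 and 10.99 in control livers at day 3. Day 14 gave 13.11, 13.65, 13.84 and 12.92 in phenformin livers, against 11.68, 12.78, 12.68 and 11.47 in control livers. The groups were separate at day 14 and overlapped at day 3 between 12.30 and 12.58. Over both days it rose 2.40-fold (1.64 to 3.49, adjusted p = 0.0138), with adjusted p = 0.146 and 0.188 by day.

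Oat, ornithine aminotransferase, rose 1.99-fold (1.44 to 2.76, adjusted p = 0.0232). Aass, the first enzyme of lysine breakdown, rose 1.5-fold (1.29 to 1.75, adjusted p = 0.00671), and its phenformin livers lay above the control livers at both days. Hal, histidine ammonia-lyase, rose 1.46-fold (1.22 to 1.75, adjusted p = 0.0256). Hpd, a dioxygenase of tyrosine breakdown, rose 1.19-fold (1.09 to 1.29, adjusted p = 0.0268). The call of Hpd was lost under quantile normalization (adjusted p = 0.115), and its values of 18.16 to 18.85 are close to the top of the scale. Gls2, liver glutaminase, rose 1.67-fold (1.41 to 1.97), and Agxt, the glyoxylate aminotransferase, 1.96-fold (1.56 to 2.46).

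Other genes of nitrogen use moved as well. In the urea cycle 1 of 10 measured genes rose, argininosuccinate lyase Asl, by 2.83-fold (2.29 to 3.51). Acmsd, which steers tryptophan breakdown away from NAD, rose 2.39-fold (1.60 to 3.56, adjusted p = 0.0204). It had 11.84, 11.80, 11.67 and 11.81 in phenformin livers at day 3, against 10.33, 11.30, 9.89 and 9.96 in control livers at day 3. At day 14 the groups overlapped, with 11.94 to 12.80 in phenformin livers and 10.36 to 12.52 in control livers.

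Afmid, the formamidase of an earlier step of tryptophan breakdown, fell 1.79-fold (1.43 to 2.24, adjusted p = 0.00816). Ivd, isovaleryl-CoA dehydrogenase of leucine breakdown, rose 1.48-fold (1.24 to 1.77, adjusted p = 0.0186), and Ppm1k, the phosphatase that activates branched-chain keto acid breakdown, rose 1.83-fold (1.38 to 2.44, adjusted p = 0.0235). These 3 genes were chosen after their values were seen, and each was resolved at neither day.

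Among 17 measured genes of methyl and sulfur metabolism, 2 rose and 2 fell, beside 1.55% of all genes in each direction. The methyltransferases Inmt and Gnmt rose 9.32-fold (4.69 to 18.5) and 2.12-fold (1.59 to 2.81). Gclc, the catalytic subunit of glutathione synthesis, fell 1.47-fold (1.20 to 1.80, adjusted p = 0.0404), lost in 12 of 16 fits without 1 array. Csad, the decarboxylase of taurine synthesis, fell 3.47-fold (2.43 to 4.96).

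Slc6a6, the taurine transporter, rose. At day 3 it had 9.91, 10.75, 11.10 and 10.84 in phenformin livers, against 8.64, 9.79, 9.15 and 8.84 in control livers. At day 14 it had 11.18, 10.68, 10.30 and 11 in phenformin livers, against 9.29, 9.43, 8.41 and 10.76 in control livers. The groups were separate at day 3, and at day 14 only control replicate 4, at 10.76, lay among the phenformin arrays. Pooled, the rise was 2.70-fold (1.80 to 4.04, adjusted p = 0.0106).

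Slc16a10, a transporter of aromatic amino acids and thyroid hormone, had 11.72, 11.99, 11.95 and 12.57 in phenformin livers at day 3, against 10.51, 10.36, 10.60 and 10.07 in control livers at day 3. The day-14 values were 13.12, 12.75, 13.02 and 12.61 in phenformin livers, against 12.15, 11.99, 11.73 and 9.62 in control livers. The groups did not overlap at either day, and at day 14 control replicate 4 lay far below the other 3 control arrays. The rise over both days was 3.00-fold (1.99 to 4.52, adjusted p = 0.0063). Of 8 measured thyroid genes, 2 rose and 2 fell, beside 1.55% of all genes in each direction. The binding globulin Serpina7 rose 2.84-fold (1.75 to 4.63), and the deiodinase Dio1 fell 2.27-fold (1.81 to 2.84). Slc16a10 was the other rise and Thrsp the other fall.

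**Figure D3:**
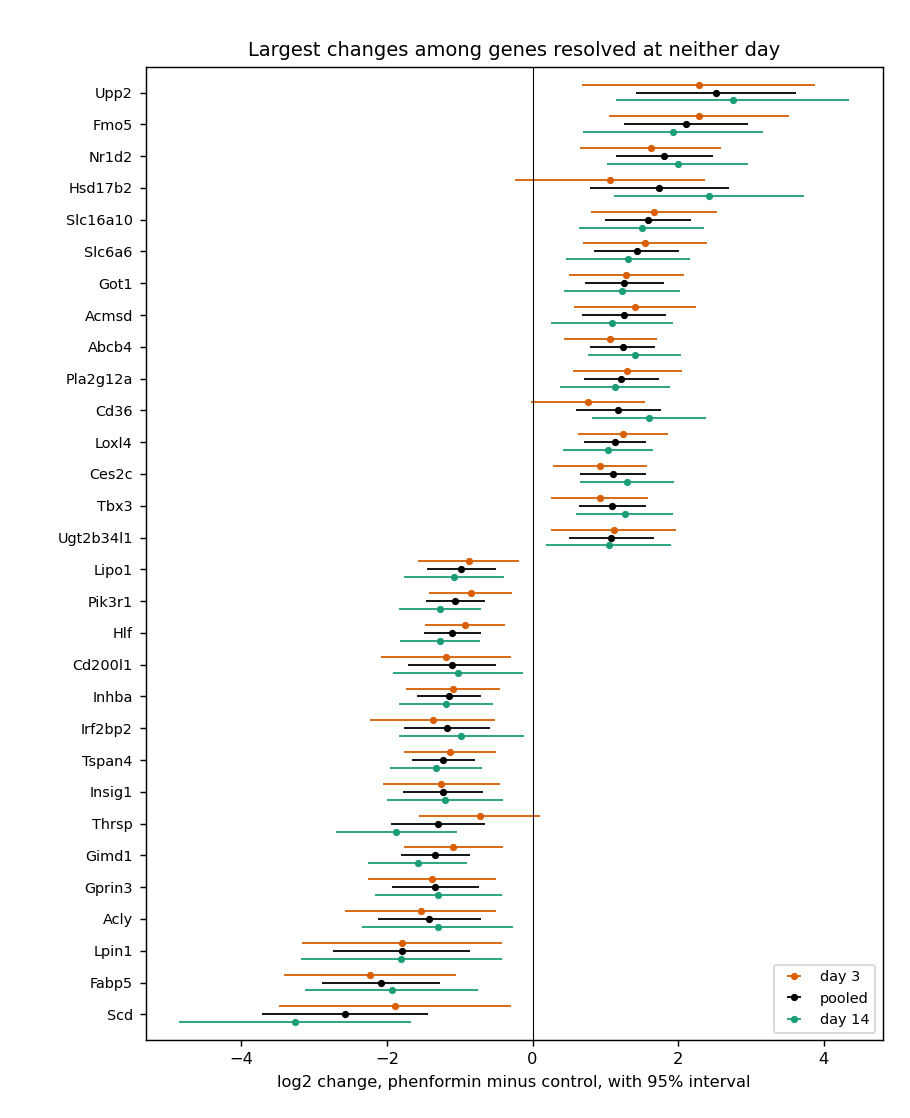
Log2 change (phenformin minus control, horizontal axis) with its 95% interval at day 3, pooled and at day 14 for the genes resolved at neither day with the largest changes, 15 up and 15 down. Every pooled interval is narrower than those of the days, and the day-3 interval takes in 0 for Hsd17b2, Cd36 and Thrsp.

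The largest rise among genes resolved at neither day was that of Upp2, uridine phosphorylase 2, a liver enzyme of pyrimidine salvage. It had 11.25, 8.78, 9.38 and 8.64 in phenformin livers at day 3, against 7.73, 6.59, 8.54 and 6.04 in control livers at day 3. By day 14 the values were 10.51, 11.15, 13.45 and 11.96 in phenformin livers, against 8.46, 8.58, 10.77 and 8.26 in control livers. The groups were just separate at day 3 and overlapped at day 14 through 1 control array at 10.77. Its pooled rise was 5.73-fold (2.67 to 12.3, adjusted p = 0.015).

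Fmo5, a flavin monooxygenase, had 13.02, 12.81, 12.86 and 12.93 in phenformin livers at day 3, against 11.48, 9.91, 11.62 and 9.44 in control livers at day 3. In phenformin livers at day 14 there were 13.37, 13.54, 13.41 and 12.95, against 11.50, 12.15, 12.59 and 9.31 in control livers. Here the phenformin arrays were close together and the control arrays wide apart, with no overlap at either day. The pooled rise was 4.32-fold (2.39 to 7.79, adjusted p = 0.01), against adjusted p = 0.0875 and 0.185 by day.

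Hsd17b2, which inactivates estradiol and testosterone, rose 3.35-fold (1.72 to 6.50, adjusted p = 0.0473), but its call was lost in 14 of 16 fits without 1 array. Of 18 measured genes of P450 and related drug metabolism, 2 rose and 0 fell, beside 1.55% of all genes in each direction. Both rises were resolved at neither day. They were Cyp2e1, the ethanol-inducible P450, 1.5-fold (1.27 to 1.78, adjusted p = 0.0117), and the carboxylesterase Ces2c, 2.16-fold (1.58 to 2.95, adjusted p = 0.0103). Cyp2e1 reached 19.22, near the highest value in the deposited table, 19.93. Ces2c belongs to a family of near-identical genes. Of 13 measured conjugation genes, limma called 0, with 6 at an unadjusted p under 0.05 and 0 to 1 called in the other fits. Ugt2b34l1, a glucuronosyltransferase by its name, rose 2.12-fold (1.41 to 3.18, adjusted p = 0.0438) and lost its call in 13 of 16 fits without 1 array.

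Of 16 measured antioxidant genes under NRF2, 2 rose and 0 fell, beside 1.55% of all genes in each direction. Gclc, the gene of glutathione synthesis that fell, was counted under methyl and sulfur metabolism and not in this list. Nqo1, a quinone reductase, had 11.46, 10.34, 10.43 and 11.47 in phenformin livers at day 3, against 10.51, 9.88, 9.92 and 9.67 in control livers at day 3. Day 14 gave 10.91, 11.52, 10.98 and 10.13 in phenformin livers, against 10.29, 9.76, 9.85 and 9.80 in control livers. At each day control replicate 1 lay within the range of the phenformin arrays. Over both days it rose 1.92-fold (1.42 to 2.61, adjusted p = 0.0223). Gsta4, a glutathione transferase, rose 1.40-fold (1.24 to 1.59).

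Some marker genes of hepatocytes around the central vein rose. Of 12 measured pericentral markers, 4 rose and 1 fell, all 5 resolved at neither day, beside 1.55% of all genes in each direction. The median change was 0.44 at 10 positive estimates of 12, and 3 to 5 of the markers rose in fits without 1 array. The mean log2 value of the 12 markers per array was 11.74 to 12.01 in phenformin livers and 11.41 to 11.66 in control livers at day 3, and 11.94 to 12.34 in phenformin livers and 11.39 to 11.78 in control livers at day 14.

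Tbx3, a T-box factor under Wnt control in pericentral hepatocytes, had 8.19, 6.90, 7.51 and 7.09 in phenformin livers at day 3, against 6.88, 6.18, 6.45 and 6.48 in control livers at day 3. At day 14 it had 8.43, 7.38, 7.90 and 8.07 in phenformin livers, against 6.50, 6.57, 6.11 and 7.53 in control livers. The groups touched at day 3, at 6.90 against 6.88, and at day 14 control replicate 4 exceeded 1 phenformin array. Pooled, the rise was 2.14-fold (1.55 to 2.95, adjusted p = 0.0126). Beside Cyp2e1 and Oat, the glutamate transporter Slc1a2 rose by 0.99 on the log2 scale. Gulo, which makes vitamin C in rats, fell by 0.35 on that scale. Slc1a2 and Gulo are named as the remaining markers called. The markers Glul, Lgr5 and Axin2 were measured and not called.

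Rspo3, Znrf3, Apcdd1 and Prox1 were picked from the calls after their values were seen, with no list behind them, and are given as single genes. Rspo3, a secreted enhancer of Wnt signals from cells of the central vein, rose 1.26-fold (1.13 to 1.39, adjusted p = 0.02). Znrf3, the ubiquitin ligase that removes Wnt receptors, rose 1.41-fold (1.20 to 1.67, adjusted p = 0.0237), and Apcdd1, a membrane inhibitor of the pathway, 1.66-fold (1.33 to 2.08, adjusted p = 0.0148). Prox1, a homeobox factor of hepatocytes, rose 1.58-fold (1.34 to 1.87, adjusted p = 0.00513). Loxl4, a lysyl oxidase, was named by its size and rose 2.20-fold (1.64 to 2.96, adjusted p = 0.00636). Of 10 measured periportal markers 2 rose and 0 fell, beside 1.55% of all genes in each direction. The 2 were Hal and Gls2, and the median change was 0.18. The mean log2 value of the periportal markers per array was 12.42 to 12.83 in phenformin livers and 11.99 to 12.53 in control livers at day 3. At day 14 it was 12.63 to 12.97 in phenformin livers and 12.40 to 12.64 in control livers. The groups overlapped at both days.

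Some proteasome genes rose, by small amounts. In the list of 20 measured genes of the proteasome and autophagy, 4 rose and 0 fell, all at neither day: Psma1 1.29-fold (1.16 to 1.43), Psmd1 1.27-fold (1.15 to 1.41), Psmd11 1.25-fold (1.15 to 1.36) and the lysosomal protease Ctsl 1.34-fold (1.16 to 1.56). Their adjusted p lay between 0.008 and 0.0285. Psma1, a ring subunit of the core, had 12.89, 12.93, 12.90 and 12.81 in phenformin livers at day 3, against 12.71, 12.29, 12.65 and 12.81 in control livers at day 3. The day-14 values were 12.78, 12.96, 12.97 and 12.96 in phenformin livers, against 12.48, 12.54, 12.35 and 12.48 in control livers. The groups met at 12.81 at day 3 and were separate at day 14.

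All measured genes named as proteasome subunits were then taken as a family, chosen after these values were seen and given as a description. Of 39 such genes 11 were called, all higher, beside 1.55% of all genes, and 37 had an estimate above 0, beside 51% of all genes. Nothing is read from these shares. The median change was 0.26 pooled, 0.16 at day 3 and 0.30 at day 14, and 1 of the 39 was called at a day. Calls fell on 7 of 19 subunits of the core particle and 4 of 20 of the regulatory particle. The largest called change was that of Psmc3, an ATPase of the regulatory particle, at 0.49 ± 0.09 (SE). The mean log2 value over the 39 genes was 10.82 to 11.02 in phenformin livers, against 10.58 to 10.79 in control livers at day 3. At day 14 it was 10.80 to 10.93 in phenformin livers, against 10.43 to 10.73 in control livers. The groups were thus separate at both days, and 8 to 12 of the genes were called in fits without 1 array. Vcp, the ATPase that unfolds proteins for the proteasome, also chosen after its values were seen, rose 1.25-fold (1.15 to 1.37, adjusted p = 0.00905).

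**Figure D4:**
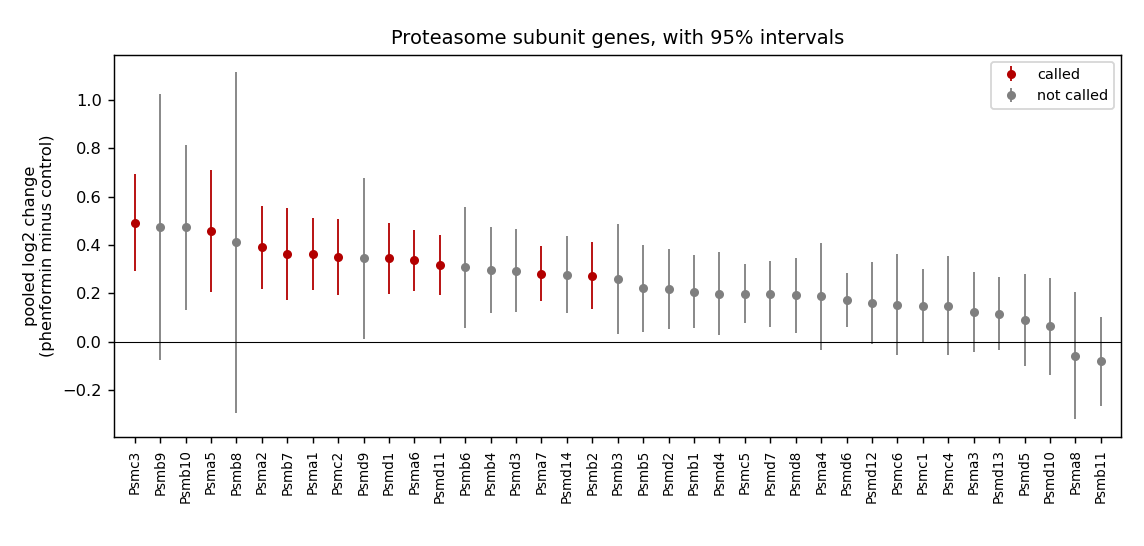
Pooled log2 change (phenformin minus control, vertical axis) with its 95% interval for 39 proteasome subunit genes, ordered by size; red genes were called, grey genes were not. All 11 called genes lie above 0, at 0.49 or less, and Psma8 and Psmb11 lie below 0.

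Some chaperones of the cytosol fell. Of 18 measured heat shock genes 0 rose and 5 fell, beside 1.55% of all genes in each direction, with a median of -0.25, and 4 to 5 fell in every fit without 1 array. Hsph1, the large Hsp110 chaperone, was resolved at neither day. It had 11.60, 11.88, 11.33 and 10.81 in phenformin livers at day 3, against 12.17, 12.02, 11.84 and 12.28 in control livers at day 3. By day 14 the values were 11.44, 11.28, 11.39 and 11.11 in phenformin livers, against 12.13, 11.84, 12.28 and 11.70 in control livers. Only 1 phenformin array, at 11.88, reached into the control range. The pooled fall was 1.60-fold (1.32 to 1.93, adjusted p = 0.0101).

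The Hsp90 cochaperone Fkbp4 fell 1.75-fold (1.52 to 2.02), Hspa4l, another Hsp110 chaperone, 1.81-fold (1.47 to 2.23) and Hsp90aa1 1.59-fold (1.36 to 1.87). Hsp90ab1 fell 1.19-fold (1.08 to 1.30, adjusted p = 0.0479), lost in 13 of 16 fits without 1 array. Several calls carry the names of Hsp90aa1 pseudogenes, such as Hsp90aa1-ps2 and Hsp90aa1-ps14, and such near-identical copies may report the same RNA. In all, 13 of the 684 calls have a pseudogene name. Of 17 measured chaperones of the endoplasmic reticulum 1 fell, Edem1, which helps remove misfolded glycoproteins, by 1.51-fold (1.21 to 1.87, adjusted p = 0.0389).

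Insulin and growth factor genes changed in part. Of 21 measured genes of insulin signalling, FOXO and hepatokines, 1 rose and 3 fell, beside 1.55% of all genes in each direction. Igfbp2, a binding protein of insulin-like growth factors, rose 1.54-fold (1.29 to 1.83, adjusted p = 0.0107), Igfals, the stabilising subunit of the circulating complex, fell 1.62-fold (1.28 to 2.07, adjusted p = 0.0288), and Igf1 fell 1.32-fold (1.14 to 1.53, adjusted p = 0.0393). The secreted protein Tsku fell 4.11-fold (2.98 to 5.68). Fgf21 and Gdf15, hormones of metabolic stress, were not called, with folds of 1.03 (0.856 to 1.23) and 1.01 (0.803 to 1.27), and their values of 4.90 to 6.92 lay around the median gene.

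Pik3r1, the regulatory subunit of phosphoinositide 3-kinase, had 12.04, 12.95, 13.02 and 12.92 in phenformin livers at day 3, against 12.88, 14.27, 13.66 and 13.53 in control livers at day 3. In phenformin livers at day 14 there were 12.01, 12.37, 11.62 and 12.18, against 13.37, 13.44, 13.47 and 12.98 in control livers. The groups were separate at day 14. Over both days it fell 2.09-fold (1.58 to 2.76, adjusted p = 0.00694).

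Inhba, the beta A subunit of activin, had 8.21, 7.90, 7.70 and 8.16 in phenformin livers at day 3, against 8.54, 9.57, 8.62 and 9.63 in control livers at day 3. Day 14 gave 8.12, 7.67, 7.11 and 8.12 in phenformin livers, against 8.64, 8.92, 8.54 and 9.69 in control livers. Phenformin arrays lay below all control arrays at both days, and the pooled fall was 2.21-fold (1.63 to 3.00, adjusted p = 0.00758). Inhbc, a beta C subunit of the same family, chosen after its values were seen, fell 1.43-fold (1.22 to 1.68, adjusted p = 0.0153).

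Acute phase and interleukin genes rose in 3 of 20 measured cases and fell in 0, beside 1.55% of all genes in each direction. Most of the list did not rise: 13 of the 20 estimates were negative, with a median of -0.04. Orm1, an acute phase glycoprotein, was resolved at neither day and rose 1.52-fold (1.25 to 1.84, adjusted p = 0.0232). Stat3, the factor downstream of interleukin 6, rose 2.15-fold (1.61 to 2.88), and the interleukin 1 receptor Il1r1 2.41-fold (1.66 to 3.48). Mertk, a receptor for dying cells that was chosen after its values were seen, rose 1.66-fold (1.40 to 1.95, adjusted p = 0.00273). The 13 measured markers of Kupffer cells and macrophages gave 0 calls in the pooled fit and in each of the other fits run. Their mean log2 value was 9.61 to 10.85 in phenformin livers and 9.27 to 10.10 in control livers at day 3, and 9.81 to 10.54 in phenformin livers and 9.93 to 10.40 in control livers at day 14, and its part in the rises was not tested.

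Genes of complex I, the known target of biguanides, were mostly not called. Of 33 measured subunits 1 rose and 1 fell, beside 1.55% of all genes in each direction. The list ran from -0.37 to 0.27 with a median of 0.04. Ndufa8 fell 1.29-fold (1.13 to 1.46, adjusted p = 0.0316) and Ndufa2 rose 1.21-fold (1.09 to 1.34, adjusted p = 0.0404), calls that were lost in 11 and 12 of 16 fits without 1 array. Of 26 measured genes of complexes II to V, limma called 0, 1 had an unadjusted p under 0.05, and 0 were called in every other fit. Of 11 genes of AMPK and biguanide transport, limma called 0 with changes between -0.20 and 0.15, and 1 had an unadjusted p under 0.05. Of 21 genes of the integrated stress response, limma called 0, 3 had an unadjusted p under 0.05, and 0 to 1 were called in each direction in the other fits.

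**Figure D5:**
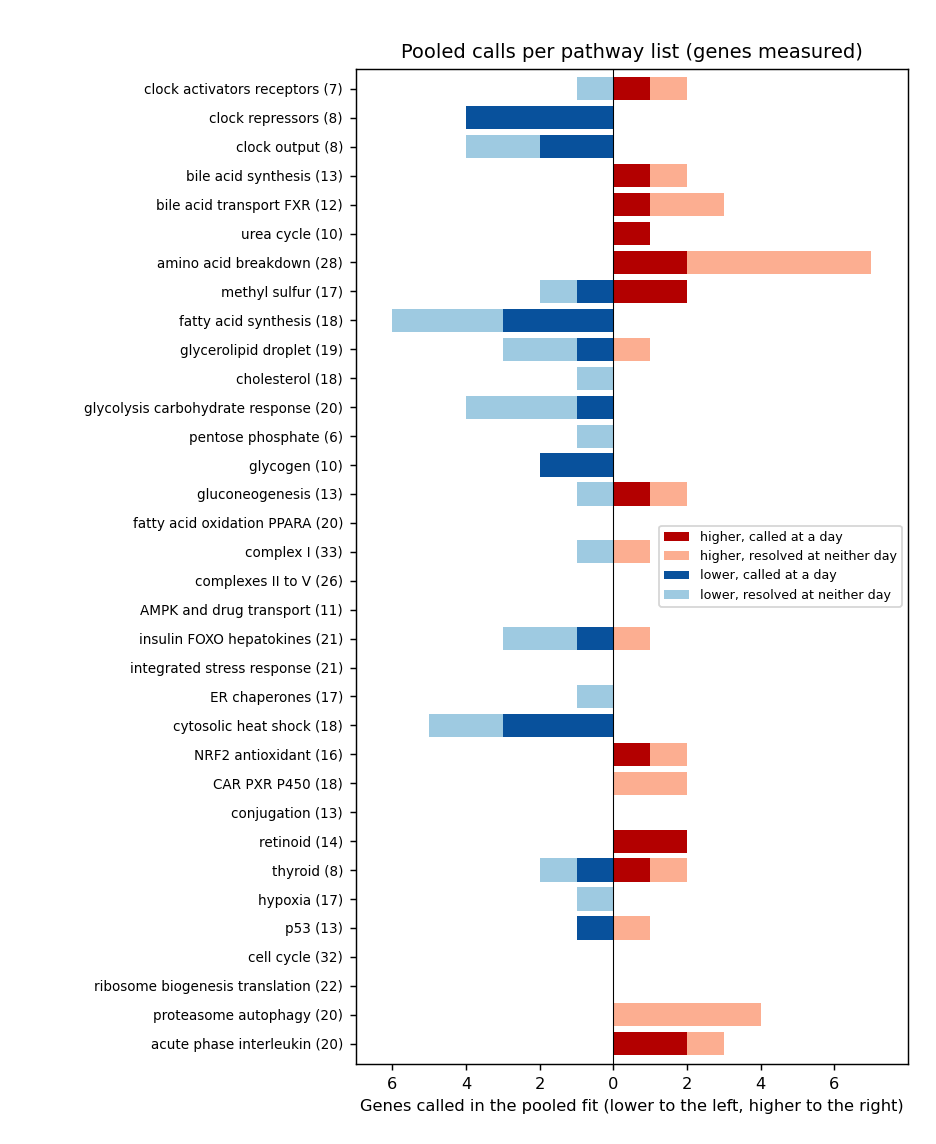
Number of genes called in the pooled fit for each of the 34 pathway lists (vertical axis, measured genes in brackets), falls to the left of 0 and rises to the right; pale parts are genes resolved at neither day. Amino acid breakdown has 7 rises and 0 falls, fatty acid synthesis 6 falls and 0 rises, and cell cycle no call.

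Pooling removed 1 group of day-3 changes. Of 32 measured cell cycle genes, 22 were called lower at day 3, beside 0.901% of all genes, and 0 at day 14, beside 0.177%. The pooled fit called 0, with 19 at an unadjusted p under 0.05 and a smallest adjusted p of 0.0609. Their median change was -0.96 at day 3, 0.15 at day 14 and -0.44 pooled. The difference between the days had an unadjusted p under 0.05 in 30 of the 32, beside 4.68% of all genes. Their mean level was 5.8 to 6.51 in phenformin livers and 7.09 to 7.51 in control livers at day 3, and 6.02 to 6.90 in phenformin livers and 5.79 to 6.48 in control livers at day 14. Up to 7 of the genes were called lower in the other fits.

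Cdkn1a, the inhibitor p21 of cyclin-dependent kinases, was called in the pooled fit and fell 3.38-fold (2.28 to 5.00, adjusted p = 0.00253). Its phenformin livers lay between 6.21 and 7.29 at day 3 and between 5.76 and 6 at day 14, against 6.99 to 8.90 and 7.03 to 8.6 in control livers. Of 13 measured p53 targets it was the sole fall, and Ccng1, cyclin G1, the sole rise, at 1.26-fold (1.11 to 1.44, adjusted p = 0.0491, lost in 14 of 16 fits without 1 array).

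Fibroblast genes fell in part. Of 15 measured stellate cell and fibroblast markers 5 fell and 0 rose, beside 1.55% of all genes in each direction, 2 of them at neither day. By day 6 were called lower at day 3, beside 0.901% of all genes, and 0 at day 14, beside 0.177%. The median change was -0.43 at day 3, -0.01 at day 14 and -0.21 pooled. The 5 were Reln (-0.41), a stellate cell protein, and the collagen and matrix genes Col1a2 (-0.53), Col3a1 (-0.40), Col5a1 (-0.20) and Loxl2 (-0.29). Their list was lower at day 3, with a mean of 7.97 to 8.03 in phenformin livers and 8.32 to 8.54 in control livers. At day 14 it was 8.07 to 8.18 in phenformin livers and 8.11 to 8.23 in control livers. Mfap4, a matrix protein among the calls with the largest day difference, fell 1.56-fold (1.25 to 1.96), by 1.05 on the log2 scale at day 3 and by 0.24 at day 14. Of 12 endothelial markers 1 fell, Stab1, by 0.26 on the log2 scale. The 4 measured erythroid markers had a median of -0.43 with 0 called, and their mean level was 9.10 to 10.20 in phenformin livers and 9.97 to 10.72 in control livers over both days. T cell, B cell, neutrophil and bile duct lists had 0 calls each in the pooled fit.

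On the list of retinoid genes 2 of 14 rose, Sdr42e1 and Aldh1a1. Sdr42e1, a dehydrogenase by its name, rose 3.79-fold (2.69 to 5.35), and whether it acts on retinoids was not tested. The dehydrogenase Aldh1a1 rose 2.62-fold (1.61 to 4.25, lost in 9 of 16 fits without 1 array). Of 17 hypoxia genes 1 fell, the collagen prolyl hydroxylase P4ha1, 1.44-fold (1.20 to 1.72, adjusted p = 0.0284). Pgk1, which also fell, was counted under glycolysis and not among the hypoxia genes. The counts of both lists stand beside 1.55% of all genes in each direction. Of 22 genes of ribosome formation and translation, limma called 0, with 5 at an unadjusted p under 0.05 and 0 to 1 called in each direction in the other fits. Eprs1, the tRNA synthetase for glutamate and proline, chosen after its values were seen, rose 1.56-fold (1.33 to 1.83, adjusted p = 0.00529).

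Further large changes at neither day had less known roles in liver. Gimd1, a GTPase of the GIMAP type, fell 2.52-fold (1.81 to 3.51, adjusted p = 0.00511). Its phenformin arrays lay between 5.79 and 6.71 and its control arrays between 6.74 and 8.37. Tspan4, a tetraspanin, fell 2.34-fold (1.74 to 3.16, adjusted p = 0.00444), with 8.13 to 9.63 in phenformin livers and 8.96 to 10.62 in control livers. Gprin3 fell 2.53-fold (1.67 to 3.82) and the lipase family member Lipo1 1.97-fold (1.42 to 2.73). Pla2g12a, a secreted phospholipase, rose 2.33-fold (1.63 to 3.33, adjusted p = 0.0126). Chka, choline kinase alpha, chosen after its values were seen, fell 1.84-fold (1.39 to 2.42, adjusted p = 0.0188). Irf2bp2, a transcriptional corepressor, fell 2.26-fold (1.5 to 3.41, adjusted p = 0.0324) and Cd200l1 2.15-fold (1.41 to 3.29, adjusted p = 0.0473), calls lost in 10 and 13 of 16 fits without 1 array.

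Genes with large, separate changes at both days also included Cryl1, a crystallin-like dehydrogenase, 2.42-fold up (1.88 to 3.11), Mbnl3, a splicing regulator, 2.28-fold up (1.86 to 2.80), and Tmem37, 2.53-fold down (1.98 to 3.24).

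The day difference had an unadjusted p under 0.05 in 46 of the 684 calls (6.73%), beside 4.68% of all genes. Nothing is read from this share, since the additive fit puts a day difference into the error term and so selects against such genes. The fit of group means leaves the day difference out of the error term, and there the share was 89 of 699 calls (12.7%). Among the 684 calls, the 6 with the smallest p for the day difference were H2ac4, Gstm4, Tmem30b, Timeless, Clic5 and Mfap4. None of the 6 was called for the difference (adjusted p from 0.288 to 0.495). Gstm4, a glutathione transferase of a family with similar members, had 12.94 to 13.25 in phenformin livers at day 3, against 11.63 to 12.71 in control livers, and 12.91 to 12.99 at day 14, against 12.57 to 12.88. Tmem30b, a partner of lipid flippases, changed by 0.33 at day 3 and 1.45 at day 14.

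The threshold fell within a dense range. The last genes inside were Ralgapb (fold 1.17, adjusted p = 0.04995) and Myo10 (fold 1.31, adjusted p = 0.04998), and the first outside were Cln3 (fold 1.26, adjusted p = 0.05006) and Lamp2 (fold 1.15, adjusted p = 0.0505). Their order depended on the fit. Of the 684 calls, 348 were kept in all 16 fits that left out 1 array, 173 rises and 175 falls. Among the 504 genes resolved at neither day, 192 were kept in all 16 and 226 were lost in at least 8.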

How the data were processed

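The deposited table gives 1 linear intensity per probe set and array for 16 livers; per the submitters' processing notes the authors used RMA, which corrects background, normalizes between arrays and summarises probes. The sources used here name neither the program and its version nor the annotation build. Of 68842 probe sets, 23446 had 1 gene symbol in the array's annotation table, 505 had several and 44891 had none. The probe set with the highest mean stood for a gene (1182 genes had several), which left 22093 genes. No filter was applied. In the GRCr8 gene table the chromosome matched for 22678 named probe sets, differed for 335 and was not checked for 433; 5 pooled calls are among those that differed (Actg1, Aph1b, Ces2, Dpp3l1 and Gng5).

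Log2 intensity was fitted with limma 3.58.1 in R 4.3.3 (lmFit and eBayes). The pooled effect came from treatment plus day over 16 arrays, with 13 residual degrees of freedom (16.14 with the prior). Day effects and their difference came from 4 group means, with 12 residual degrees of freedom. The p-values were adjusted by Benjamini-Hochberg over all genes and a gene was called under 0.05. The number of arrays limits the precision, and where cage mates share a group the p-values may be too small. The scripts were tested on simulated data.

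Named genes are the 12 largest rises and falls without overlap at either day, the 15 largest rises and falls resolved at neither day, up to 5 neither-day calls and 3 other calls of each pathway list, the 6 calls with the largest day difference by p, 12 further genes such as Pck1 and Cyp7a1, and 2 on each side of the threshold. Placeholder symbols, 19 of the calls, were left out. The comparison, the lists and these genes were chosen with earlier results of these data known. The 45 gene lists, 34 of pathways and 11 of cell types, hold 728 entries, of which 672 were measured. Replicate numbers were not used as pairs in the main fit. Deviations of arrays with the same number correlated at -0.11 to 0.18 over 24 pairs, and those with different numbers at -0.27 to 0.18 over 72. Between arrays numbered 4 the correlation was 0.02 to 0.18, and between arrays numbered 2 it was -0.11 to 0.11. Whether a number marks a shared cage or order was not tested. Alternatives were another prior, a filter on low values, quantile normalization, centring, 4 group means, all probe sets, array weights, a replicate block, separate fits by day, a day threshold of 0.10, a minimum of 1.5-fold and leaving out each array.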

Additional observations from a re-analysis of the deposited data

Results flagged for a closer look

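In 32 of 528 groups of 4 arrays tested for the named genes (6.06%), 1 array stood apart from the other 3 by Dixon's ratio, a rule that flags about 1 in 20 groups by chance. Of these, 7 fell on replicate 4 of the control livers at day 14. That array was lowest in its group for Slc16a10 (9.62), Usp2 (6.67), Ugt2b34l1 (11.28), Irf2bp2 (9.46), Edem1 (15.6), Cyp2e1 (17.74) and Tmem30b (5.55). All 7 of these genes were called in the pooled fit, as were 124 of the 132 named genes, so nothing is read from that. Usp2, Irf2bp2 and Edem1 fell with the drug, where a low control array makes the fall smaller. Slc16a10, Ugt2b34l1, Cyp2e1 and Tmem30b rose, where it makes the rise larger. Among control livers at day 14, replicate 3 was highest for Upp2 (10.77) and replicate 1 for Nqo1 (10.29).

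Replicate 4 of the phenformin livers at day 3 stood apart for 5 genes. It was highest for Cd36 (10.8), Per2 (6.74) and Inhbc (14.05) and lowest for Usp2 (5.88) and Pck1 (15.68). Replicate 1 of that group was highest for Hlf (8.47) and lowest for Pik3r1 (12.04) and Ralgapb (9.58), and replicate 3 was highest for Znrf3 (8.6).

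In phenformin livers at day 14, replicate 4 was highest for Gckr (14.42), Dio1 (12.06), Orm1 (17.68) and Myo10 (10.86). Replicate 3 was lowest for Gimd1 (5.79) and Fkbp4 (11.4) and highest for Anlnl1 (5.22). Replicate 2 was highest for Pnpla3 (5.92), and replicate 1 was highest for Aqp9 (12.3) and lowest for Psma1 (12.78).

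Among control livers at day 3, replicate 4 was lowest for Acly (14.67) and Pck1 (16.37), and replicate 3 was lowest for Slco1b2 (17.52) and Znrf3 (7.58).

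The effect of the drug on Anlnl1 differed between the days by 1.58 on the log2 scale, with an effect of 0.27 at day 14 and -1.32 at day 3 (limma, adjusted p of the difference 0.0284). At day 3 its 4 phenformin arrays lay between 4.14 and 4.63 and its 4 control arrays between 5.57 and 5.78. At day 14 they lay between 4.8 and 5.22 in phenformin livers and between 4.25 and 4.92 in control livers.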

How the results depend on the processing

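The pooled counts kept within 1.5 times of 342 rises and 342 falls, and the counts resolved at neither day within 1.5 times of 272 and 232, in every alternative except a fold minimum and some fits without 1 array. A change of at least 1.5-fold left 81 rises and 112 falls, of which 51 and 51 were resolved at neither day. Leaving out each array in turn gave 219 to 383 rises and 216 to 402 falls, with 174 to 277 rises and 140 to 258 falls resolved at neither day. The count fell by over 1.5 times without replicate 2 of the control livers at day 3 (219 rises, 218 falls), without replicate 1 (216 falls) and replicate 3 (227 falls) of the phenformin livers at day 3 and, for genes resolved at neither day, without replicate 3 of the control livers at day 14 (174 rises, 140 falls), without replicates 2 (176 rises, 151 falls) and 4 (152 falls) of the control livers at day 3 and without replicate 1 of the phenformin livers at day 3 (153 falls). Fits without 1 array have fewer samples. The test of the difference between days called 1 gene, 0 with the dimmest genes left out, 2 with array weights and 0 with the replicate block, and 0 to 10 without 1 array, the highest without replicate 3 of the control livers at day 14. The largest pooled counts came with the dimmest genes by mean value left out (462 rises, 448 falls). The replicate block gave 317 rises and 325 falls, and 260 and 225 at neither day, with 541 of the 684 calls kept; it ended the calls of Cd200l1, Abcc3, Gclc, Ndufa2, Igf1, Hsp90ab1, H2ac4, Gstm4, Timeless, Ralgapb and Myo10. Separate fits of 8 arrays for each day left 309 rises and 280 falls resolved at neither day, and a day threshold of 0.10 left 191 and 177. None of 3299 comparisons of a named gene with an alternative reversed. Dim genes limit these counts, since their signal over background is unknown here.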
